A study of Oryza sativa with 12 samples.

Results

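Rice leaves given VdAL alone were compared with leaves given water, by RNA sequencing of 3 libraries on each side. The libraries were chosen by their treatment label, and these 6 are part of a series of 12. RNA came from leaves of 1-month-old TU100, an indica hybrid rice that all groups share. The groups used here were VdAL, VdAL plus azoxystrobin, azoxystrobin, and water, with 3 libraries each. The labels give VdAL without an expansion, and they give no dose and no time between treatment and harvest. Azoxystrobin is a fungicide of the strobilurin class, which blocks electron transport at complex III of mitochondria. The growth description mentions 4 areas and does not tie plants to them, so a difference between areas and a difference between treatments cannot be told apart. Nothing in the labels says that the 3 libraries of a group came from separate plants, so p-values rest on the spread among these libraries, and part or all of it may be technical.

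The level of a messenger RNA reflects the balance between its synthesis and its decay. Sequencing counts give each RNA as a share of the RNA in the library, so a decrease here is a decrease relative to the other genes. In whole leaves, fewer cells of a type and less RNA per cell cannot be told apart. A mature leaf devotes much of its messenger RNA to photosynthesis, and treatment of leaves with foreign agents is known to change the RNAs of defence and of metabolism in many plants. The files identify genes by ID with no name. The prefix BGIOSGA is the one Ensembl Plants uses for genes of indica rice. None of the IDs could be tied to a symbol in the reference table, so no function is given for any gene below, and reads of near-identical or overlapping genes may be shared in ways that cannot be seen here.

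Reads assigned to genes were 9840381, 7284593 and 9443340 in the 3 VdAL libraries and 7288437, 10144564 and 7016282 in the 3 water libraries. The share of recorded reads outside any gene was 42.2% to 45.4% in VdAL and 45.5% to 49.6% in water, and these ranges do not overlap. The scaling factor of the library size, from the trimmed mean of M-values (TMM), was 0.994 to 1.05 in VdAL and 0.952 to 0.982 in water. Both measures reached the smallest p that 3 against 3 libraries allow in a two-sided exact permutation test, 0.1, and the adjusted p over 11 library measures was 0.55. Reads not aligned uniquely were 15.3% to 22.4% of those recorded in VdAL and 9.01% to 16.1% in water (exact permutation p = 0.4). The part of these measures in the gene differences below was not tested beyond the alternatives given. Pearson correlations of log2 levels were 0.965 to 0.977 within VdAL, 0.947 to 0.960 within water, and 0.943 to 0.968 between the groups.

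Of 88438 IDs, 21381 passed the filter on low counts and were tested. Levels are in CPM, which is reads of a gene per 1000000 gene reads of its library after TMM scaling. VdAL leaves differed from water leaves in 758 of them, or 3.55% of those tested, with the quasi-likelihood test of edgeR at a threshold of 0.05 on the Benjamini-Hochberg adjusted p. Lower levels in VdAL made up 608 of these calls (2.84% of IDs tested) and higher levels 150 (0.702%). The lower genes were centred on a log2 fold change of −1.01 (median), with quartiles at −1.31 and −0.77. Higher genes had a median of 0.65, with quartiles at 0.54 and 0.85. Across all tested IDs the median was −0.01 and the quartiles lay at −0.27 and 0.20, with 51.2% of estimates below 0. Most of the rises were small, since 125 of the 150 higher genes were estimated to change by less than 2-fold, against 302 of the 608 lower genes. A change of 4-fold or more was estimated for 34 lower and 3 higher genes. The extremes were −3.69 and 4.24 on the log2 scale.

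Together the lower genes took 5.78%, 6.09% and 5.21% of the gene reads in the 3 VdAL libraries, against 10.4%, 9.53% and 9.46% in the 3 water libraries. The higher genes took 2.08%, 2.29% and 2.48% of the gene reads in VdAL, against 1.38%, 1.42% and 1.32% in water. These sums run over genes chosen for that difference and describe its size only. Lower calls outnumbered higher calls under every scaling tried, but the split moved. Higher genes were 19.8% of the calls with TMM factors and 36.3% with library sizes alone, which gave 484 lower and 276 higher genes and moved the median of all tested IDs to 0.08. The count depended on single libraries. It was 146 without VdAL replicate 3, 489 without VdAL replicate 2 and 432 without water replicate 1.

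**Figure D1:**
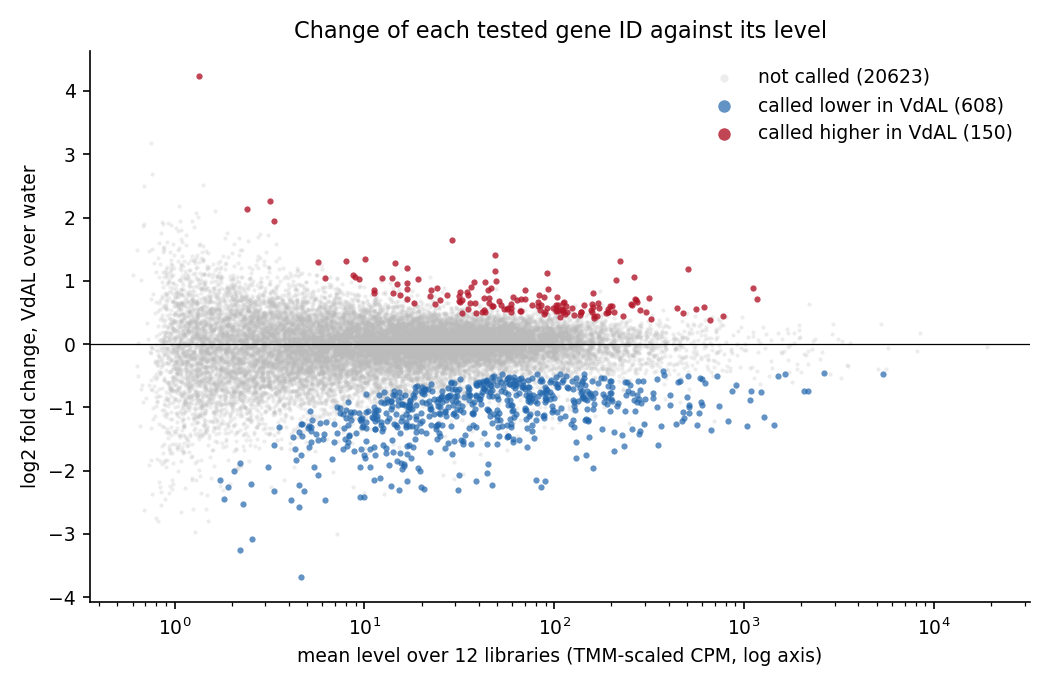
Log2 fold change of VdAL over water (vertical axis) against the mean level over the 12 libraries in CPM scaled by TMM (horizontal log axis) for the 21381 tested IDs, with the 608 IDs called lower in VdAL in blue, the 150 called higher in red and the rest in grey. The calls below the zero line outnumber those above it, and the cloud narrows as the level rises.

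A test against a fold of 1.5 (edgeR's glmTreat, Benjamini-Hochberg adjusted p under 0.05) called 31 IDs, or 0.145% of those tested, with 28 lower and 3 higher in VdAL. This count was 9 without water replicate 1, 19 without VdAL replicate 1 and 2 without VdAL replicate 3. Leaving out libraries of the other groups, which also changed the set of IDs tested, gave 16 without azoxystrobin replicate 2, 14 without azoxystrobin replicate 3, and, for VdAL plus azoxystrobin (the combination), 16 without its replicate 1 and 62 without its replicate 2. With all libraries it was 283 without a filter on low counts, 49 with a replicate block, 15 with upper-quartile factors and 13 at a minimum count of 50. At the level of single IDs, the 95% interval of the change lay wholly beyond 2-fold for 63 lower and 5 higher genes.

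IDs were named among those called, with no overlap between VdAL and water and a mean of at least 10 CPM over all 12 libraries. The largest decrease under this rule was that of BGIOSGA008804. It was not the largest among all IDs called. The bound on the mean over the 12 libraries left out called IDs with larger estimated decreases. Among these were BGIOSGA037049, BGIOSGA005006, BGIOSGA027784, BGIOSGA006777 and BGIOSGA006776, which are not a full list. BGIOSGA037049, BGIOSGA006777 and BGIOSGA006776 also passed the test against 1.5-fold, and BGIOSGA005006 and BGIOSGA027784 did not. BGIOSGA008804 stood at 13.4, 19.3 and 4.35 CPM in VdAL replicates 1 to 3, against 84.0, 53.8 and 44.0 CPM in water replicates 1 to 3. Every VdAL library lay below every water library, and VdAL replicate 3 was the lowest of all 6. The log2 fold change was −2.31 (SE 0.44, adjusted p = 0.00814, edgeR). BGIOSGA008437 came next, at 6.56, 9.32 and 5.26 CPM in VdAL against 47.7, 41.7 and 14.0 CPM in water. The groups were apart, but water replicate 3 lay far below the other two water libraries. Its log2 fold change was −2.30 (SE 0.41, adjusted p = 0.00499, edgeR), and it was not called without VdAL replicate 3 (adjusted p = 0.0503). Over its 22 alternatives the adjusted p ran from 2.6e-19 to 0.0503. The low end came from edgeR without a filter on low counts, and the next lowest was 0.000766 (edgeR without water replicate 3).

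The largest rise under the same rule was that of BGIOSGA007489, at 41.5, 33.5 and 37.9 CPM in VdAL against 12.7, 13.0 and 10.2 CPM in water. Its replicates were close to each other on both sides. The log2 fold change was 1.65 (SE 0.26, adjusted p = 0.00233, edgeR). Larger rises were called for IDs outside the rule, among them BGIOSGA006343 at 4.24 and BGIOSGA023711 at 2.27 on the log2 scale. BGIOSGA004711 stood at 72.7, 44.8 and 62.0 CPM in VdAL against 21.0, 27.7 and 18.4 CPM in water. VdAL replicate 2 was the lowest of the VdAL libraries and still above all of water. The log2 fold change was 1.41 (SE 0.22, adjusted p = 0.00209, edgeR). Of the IDs named by the rule, only BGIOSGA007489 was also called in the test against 1.5-fold (glmTreat, adjusted p = 0.0492). BGIOSGA008804, BGIOSGA008437 and BGIOSGA004711 had adjusted p = 0.0826, 0.0561 and 0.0599 in that test.

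**Figure D2:**
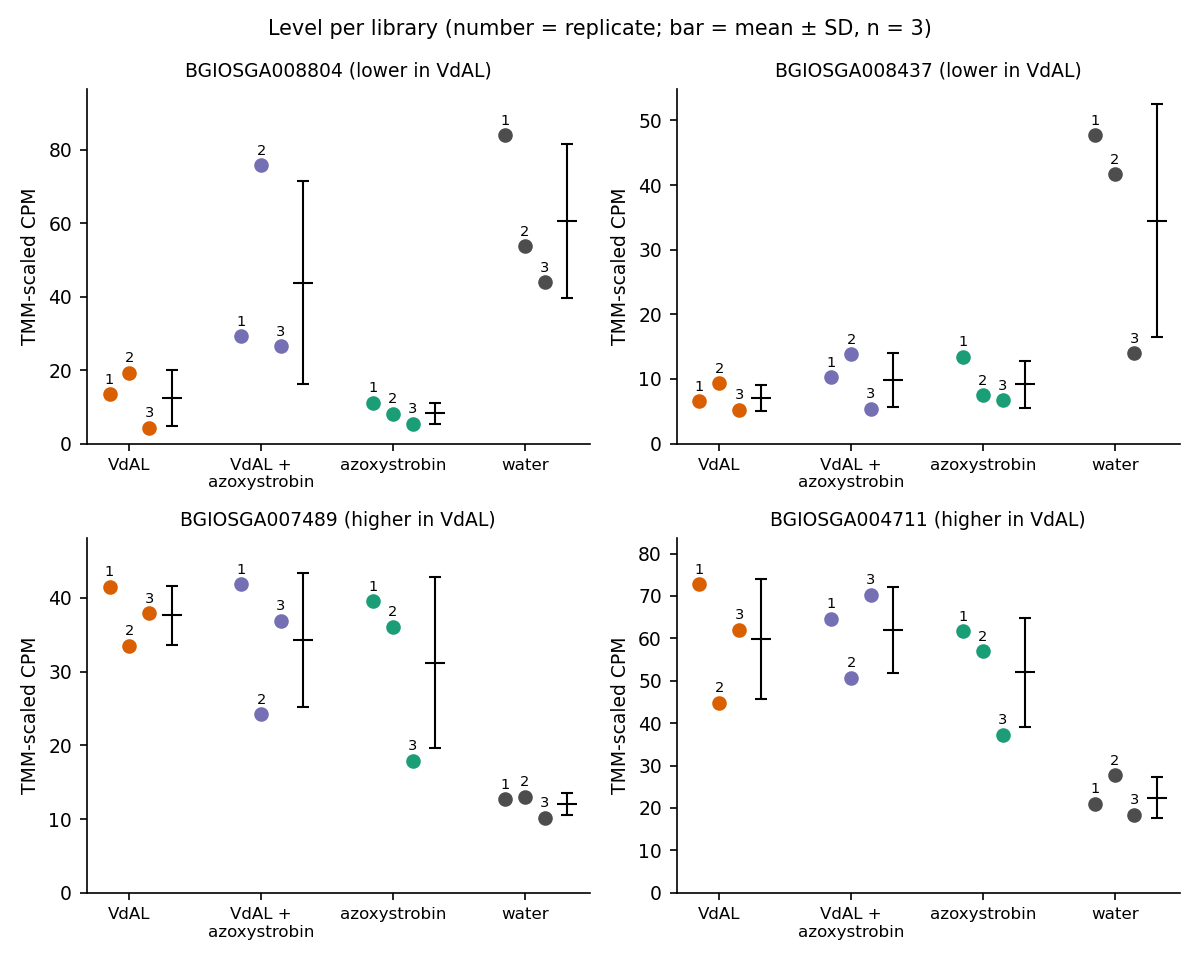
Level of the 4 named IDs in each library in CPM scaled by TMM (vertical axis, from 0) for VdAL, VdAL plus azoxystrobin, azoxystrobin and water (left to right), with the replicate number above each point and the mean ± SD of 3 libraries beside it. For BGIOSGA008804 the VdAL libraries lie between 4.35 and 19.3 CPM and the water libraries between 44.0 and 84.0 CPM.

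The share of genes called grew with their level. No ID was called among the 368 with a mean under 1 CPM, and 1.07% of 8437 IDs were called between 1 and 10 CPM. The share was 4.27% of 10684 IDs between 10 and 100 CPM, 10.9% of 1811 IDs between 100 and 1000 CPM, and 17.3% of 81 IDs at 1000 CPM and above. The median SE of the log2 fold change was 0.41 between 1 and 10 CPM, 0.18 between 10 and 100 CPM, 0.13 between 100 and 1000 CPM and 0.14 at 1000 CPM and above. The smallest change called in these classes, on the log2 scale, was 0.92, 0.47, 0.39 and 0.46 from the low to the high class. The classes thus differ in what could be seen, and the part of this in the share called was not tested. Lower genes outnumbered higher ones in each class with calls, at 80 against 10, 378 against 78, 138 against 60, and 12 against 2 from the low to the high class. Higher genes were thus 11.1%, 17.1%, 30.3% and 14.3% of the calls.

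**Figure D3:**
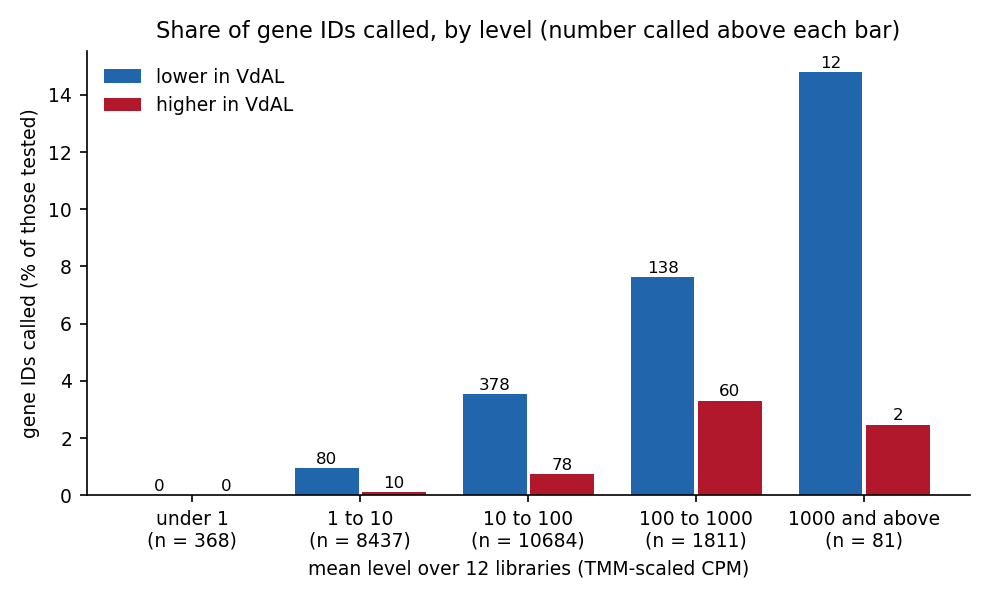
Percentage of tested IDs called lower (blue) and higher (red) in VdAL than in water, in classes of mean level in CPM scaled by TMM, with the number of IDs called above each bar and the number tested under each class. The lower bars reach 14.8% at 1000 CPM and above, against 2.47% for the higher bars.

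The most abundant RNAs of these leaves can be set beside all tested IDs, of which 3.55% were called and 64.7% had a 95% interval within 2-fold. Of the 10 IDs with the highest mean over the 6 libraries, 1 was called, a decrease, and the log2 fold changes of all 10 lay between −0.48 and 0.31. Their 95% intervals all lay within 2-fold. Among the 100 highest IDs, 15 were called lower and 2 higher, with changes from −1.30 to 0.88 and 85 intervals within 2-fold, and those 100 took a mean of 20.3% of gene reads in VdAL and 21.3% in water. Among the 1000 highest, 105 were lower and 33 were higher, or 13.8% called, and the interval lay within 2-fold for 88.7%. By ID type, 600 of 20081 tested IDs with the BGIOSGA prefix were lower and 147 higher (3.72% called). Of 1300 tested EPlOING IDs, 8 were lower and 3 higher (0.846% called). Most EPlOING IDs were low, with 1009 of the 1300 between 1 and 10 CPM, where 3 of them were called. In that class 0.297% of EPlOING IDs were called, against 1.17% of BGIOSGA IDs. Between 10 and 100 CPM the shares were 2.6% and 4.3% in the same order. The reason for the difference was not tested.

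Looking at each library, VdAL replicate 3 stood furthest from water. Among the 608 lower genes it was the lowest of the 6 libraries for 335, against 138 for VdAL replicate 2 and 135 for VdAL replicate 1. Among the 150 higher genes it was the highest for 75, against 41 for VdAL replicate 2 and 34 for VdAL replicate 1. On the water side, replicate 1 was the highest library for 251 of the lower genes, replicate 3 for 199 and replicate 2 for 158. The 3 VdAL and 3 water libraries did not overlap for 594 of the 608 lower genes and for 148 of the 150 higher ones, where 10.6% and 8.25% of all tested IDs showed such a gap downward and upward. The calls were made on these same values, so these counts only describe them. Replicates in water were more spread over all genes, with a median SD of the log2 level of 0.23 in VdAL and 0.28 in water. The SD was larger in water for 12818 of 21381 tested IDs, and for 315 of the 608 lower and 76 of the 150 higher genes.

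**Figure D4:**
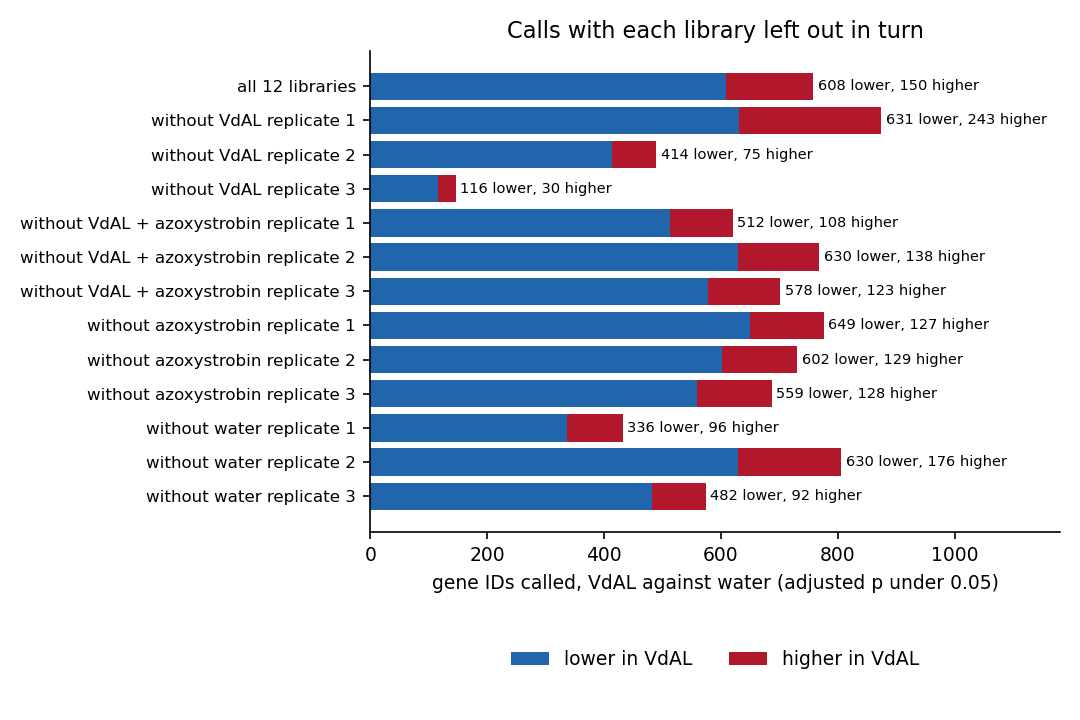
Number of IDs called lower (blue) and higher (red) in VdAL than in water with all 12 libraries and with each library left out in turn (horizontal axis, counts of IDs). The bar without VdAL replicate 3 is the shortest, at 116 lower and 30 higher IDs, and the bar without VdAL replicate 1 is the longest, at 631 and 243.

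A library that is left out can be set beside the calls made without it, although the opposite group is then used both for the call and for this comparison. Without VdAL replicate 3, 116 lower and 30 higher genes were called, and in that library all 116 and all 30 lay on the called side of the water mean. Their median log2 differences from water in that library were −1.36 and 0.99. Without VdAL replicate 2, 412 of 413 lower and 74 of 75 higher genes did so in the library left out. Without VdAL replicate 1, the counts were 590 of 630 and 218 of 243, with median log2 differences in the left-out library of −0.67 and 0.28, against fitted medians of −1.03 and 0.63 from the libraries kept. Among all tested IDs, 48.8% to 50.7% lay below the water mean in a given VdAL library. Of the water libraries, the left-out replicate 3 had the smallest share of rises, with VdAL above it for 74 of 92 higher genes.

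Some IDs had reads on one side only. Reads were found for 32385 IDs in at least 1 VdAL library and for 31868 IDs in at least 1 water library. Reads in VdAL and none in water were seen for 2757 IDs, and 2269 of those had at most 3 reads over the 3 VdAL libraries. The reverse held for 2240 IDs, with 1860 at no more than 3 reads over the 3 water libraries. An ID read in all 3 VdAL libraries and in no water library was seen 120 times, against 52 times for the opposite case, and 19 and 12 of these had at least 10 reads in all. The most reads on such an ID were 42 in VdAL and 23 in water. The 3 VdAL libraries held 26568314 gene reads and the 3 water libraries 24449283, so a count of 0 allows a level of up to 0.113 CPM over the VdAL libraries and 0.123 CPM over the water libraries, by counting error only. At an equal depth of 7016282 reads, the number of IDs expected with a read was 27977, 28055 and 28108 in VdAL and 26632, 28735 and 26725 in water. Water replicate 2 lay above all VdAL libraries and the others below (two-sided exact permutation p = 0.4).

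The genes called in VdAL were followed into the libraries that also had azoxystrobin. The combination set against azoxystrobin asks what adding VdAL did in leaves with the fungicide, and it shares no library with VdAL against water. The 608 genes lower in VdAL had a median log2 difference of 0.31 in the combination relative to azoxystrobin, and 502 of them (82.6%) were above 0, against 50.3% of all tested IDs. The direction was thus the opposite of that in leaves without azoxystrobin for most of these genes, but none of the 608 was called in edgeR's test of this comparison, where no adjusted p was under 0.0838. With p under 0.05 before adjustment, 229 of the 608 were higher and 16 lower in the combination, against 1580 higher and 994 lower among the 21381 IDs tested. Among all tested IDs 0 were called there by edgeR, 192 by DESeq2 and 33 by limma voom with a quality weight for each library. The edgeR count was 818 without a filter on low counts, and from 0 to 49 with a library left out (49 without water replicate 2). Without combination replicate 2 the median was 0.18, with 439 genes above 0. With library sizes alone it was 0.21, where all tested IDs had a median of −0.10. The 150 genes higher in VdAL had a median of −0.03 in this comparison, and 84 of them were below 0, against 49.7% of all tested IDs. The test of the difference itself, the interaction, is positive where VdAL raised the level more, or lowered it less, in leaves that had azoxystrobin. It was called positive for 428 of the 608 lower genes, against 3.36% of all tested IDs, and negative for 44 of the 150 higher genes, against 0.44%. The values that chose these genes enter the interaction with the opposite sign, so these counts are a description and support nothing.

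Each group against the same water libraries gave these values for the lower genes. The median log2 fold change was −1.01 in VdAL, −0.51 in the combination and −0.82 in azoxystrobin. In azoxystrobin against water, 607 of the 608 were estimated below 0. Of these genes 53.8% were called there (327, all lower), against 2.66% of all tested IDs in either direction. The 3 comparisons share the water libraries, so they are not independent. The water values that helped to choose these genes enter each comparison, so the counts are a description only. In single libraries, the median of the 608 genes relative to the water mean was −0.95, −0.89 and −1.12 in VdAL replicates 1 to 3, −0.60, −0.26 and −0.69 in the combination, and −0.80, −0.79 and −0.86 in azoxystrobin. The water libraries themselves were at 0.07, −0.04 and −0.02. The combination libraries all lay between azoxystrobin and water, and combination replicate 2 was the nearest to water. For the 150 higher genes the medians against water were 0.65 in VdAL, 0.51 in the combination and 0.53 in azoxystrobin. In azoxystrobin against water, 148 of the 150 were estimated above 0 and 58 were called higher (38.7%), with the same limit.

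**Figure D5:**
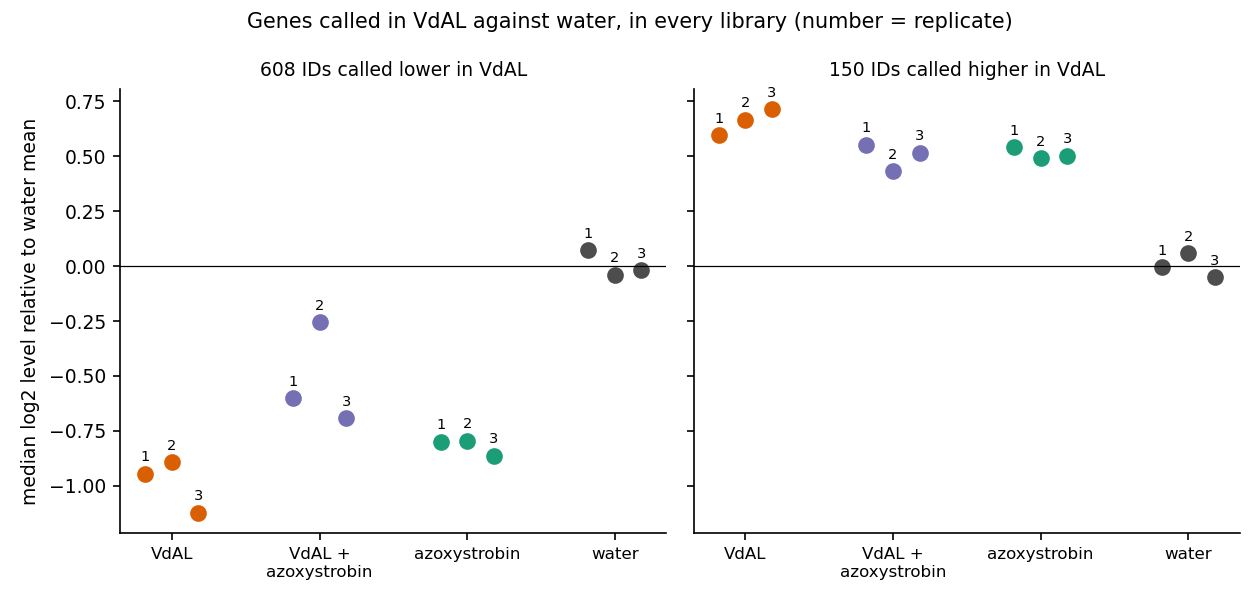
Median log2 level relative to the water mean (vertical axis) of the 608 IDs called lower and the 150 IDs called higher in VdAL than in water, for each library of VdAL, VdAL plus azoxystrobin, azoxystrobin and water (left to right), with the replicate number above each point. For the lower IDs the VdAL libraries lie between −1.12 and −0.89, and those of the combination between −0.69 and −0.26.

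The named IDs differed in this respect. BGIOSGA008804 stood at 29.2, 75.8 and 26.5 CPM in combination replicates 1 to 3, against 11.1, 8.15 and 5.42 CPM in azoxystrobin replicates 1 to 3. All 3 combination libraries were above all 3 azoxystrobin libraries, and replicate 2 reached the level of water. The log2 difference was 2.41 (95% interval 1.43 to 3.39, adjusted p = 0.0838, edgeR), which did not pass the threshold. BGIOSGA008437 averaged 9.82 ± 4.22 CPM in the combination and 9.19 ± 3.65 CPM in azoxystrobin (SD, n = 3 each), a log2 difference of 0.10 (95% interval −0.78 to 0.98). BGIOSGA007489 averaged 34.3 ± 9.08 CPM in the combination and 31.2 ± 11.6 CPM in azoxystrobin, with an interval from −0.38 to 0.66. For BGIOSGA004711 the means were 61.9 ± 10.1 CPM and 52.0 ± 12.9 CPM in the same order of groups, with an interval from −0.19 to 0.69. For these last IDs the intervals include 0 and do not reach 2-fold in either direction.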

How the data were processed

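Messenger RNA was sequenced from 12 leaf libraries as 125 bp paired ends, per the labels' protocols. The authors deposited raw read counts per gene ID for each library, with closing rows for unassigned reads. The submitters' processing notes name TopHat2 2.1.0, HTSeq 0.6.1 and edgeR 3.16.3 without their settings. The build they name is a pig build, which the IDs go against (0 with the Ensembl prefix of pig genes), so no coordinates are given. The sources used here do not state the strand setting or the annotation. Of the IDs, 0 matched a reference table of 39387 rice genes.

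Libraries were grouped by the treatment label. Rows that name no gene were left out; they held 59.2% to 65.3% of recorded reads. The tests used edgeR 4.0.16 (R 4.3.3) on these counts, with filterByExpr (minimum count 10), TMM factors and a group-means quasi-likelihood model of all 12 libraries (8 residual degrees of freedom). All tests were two-sided, with Benjamini-Hochberg adjustment over the 21381 tested IDs. SE is the log2 fold change divided by the square root of F. Log2 levels had a prior count of 2. No pair of replicates agreed within sampling noise (lowest chi-square per degree of freedom 4.16).

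Named IDs are the 2 lower and 2 higher of largest fold change among IDs called, at 10 CPM or more over the 12 libraries, without overlap between VdAL and water. The comparison, the rule and the level classes were chosen with earlier results of these data known. On simulated counts for VdAL versus water in 21381 genes, the test found 51 of 100 simulated 2-fold changes and 89 of 100 4-fold changes. Of its 150 calls there, 10 were false. The simulation changed 200 genes, in VdAL alone and up or down at random, and drew the counts of each gene and library independently. The calls made here were mostly decreases and depended on single libraries, so the false share of the simulation need not hold for them. Alternatives were RLE, upper-quartile or no factors, DESeq2 1.42.0, and limma 3.58.1 voom with a quality weight for each library. Others were no filter, a minimum count of 50, the 6 libraries alone, a replicate block, and each library left out. A covariate for the percentage of reads without a unique alignment was also used. The alternatives for the interaction were chosen after seeing the data.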

Additional observations from a re-analysis of the deposited data

Results flagged for a closer look

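The 4 named IDs passed the threshold in edgeR's test of the interaction (the log2 change from adding VdAL to azoxystrobin, less the log2 change from VdAL alone). The interaction was 4.72 for BGIOSGA008804 (adjusted p = 0.00114) and 2.40 for BGIOSGA008437 (adjusted p = 0.0298). It was −1.51 for BGIOSGA007489 (adjusted p = 0.0255) and −1.16 for BGIOSGA004711 (adjusted p = 0.0413). These IDs were chosen for a large difference between VdAL and water, and that difference enters the interaction with the opposite sign, so the choice favours these values, and they are given as a description that does not show a difference in response for any of these IDs. The interaction passed the threshold with a positive value in 3.36% of all tested IDs and with a negative value in 0.44%. Over 21 alternatives, that of BGIOSGA008804 stayed past the threshold in all 21, with values from 4.07 to 5.18. The interaction was not past it in 6 of 21 for BGIOSGA008437, 5 of 21 for BGIOSGA007489 and 10 of 21 for BGIOSGA004711, and in none of the 3 did the sign change.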

How the results depend on the processing

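The number of genes called was 1153 with DESeq2, 1438 without a filter and 440 in the 6 libraries alone. Lower genes numbered 1159 without a filter and 394 in the 6 libraries alone. Higher genes numbered 276 with library sizes alone, 335 with DESeq2, 279 without a filter and 46 in the 6 libraries alone, which leave fewer samples to estimate the spread. Calls past 1.5-fold numbered 15 with upper-quartile factors, 283 without a filter and 13 at a minimum count of 50. With library sizes alone, the median of the higher genes between combination and azoxystrobin was −0.13. Leaving out each library in turn gave 146 to 874 calls, 116 to 649 lower, 30 to 243 higher and 2 to 62 past 1.5-fold. Higher genes numbered 96 without water replicate 1, 92 without water replicate 3, 243 without VdAL replicate 1, 75 without VdAL replicate 2 and 30 without VdAL replicate 3. The medians between combination and azoxystrobin were 0.18 to 0.39 for lower and −0.06 to 0.02 for higher genes. The causes were not tested.

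Same-numbered VdAL and water libraries did not deviate together (r = −0.06, −0.16 and −0.03, against −0.03 to 0.10 for the other pairs). These values gave no sign that the numbers pair the libraries, but with 3 libraries a group they cannot exclude it. With a replicate block there were 655 calls, 541 lower and 114 higher, and 49 past 1.5-fold. With the covariate there were 642 calls, of which 357 lower and 84 higher genes were among the 608 and 150. The log2 fold changes of the 4 named IDs stayed called in each alternative, except that of BGIOSGA008437 without VdAL replicate 3. Between 1 and 10 CPM the smallest log2 change called was 0.92, and under 1 CPM no ID was called. The part of sequencing depth in this was not tested.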
